A study of Homo sapiens with 19 samples.

Results

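The 8 transcripts followed here encode the ligands and receptors at the cell surface end of transforming growth factor β (TGF-β) signalling, and were measured across human liver organoids. They are the ligands TGFB1, TGFB2, TGFB3 and INHBA, and the receptors TGFBR1, TGFBR2, TGFBR3 and ENG. They were chosen by name and matched by Ensembl identifier, and all 8 were found among the 32703 gene identifiers that every matrix listed. Organoids had been grown from W01, an established human pluripotent stem cell line distributed by WiCell, with no genetic change in any group, and dissociated cells were profiled by droplet single-cell RNA sequencing. The 19 libraries form 9 groups. Untreated organoids from ultra-low attachment plates (ULA) came from day 21 (n = 3) and day 34 (n = 2). Organoids from orbital shaker culture (OS) came from day 25 and form 7 groups with 2 libraries in each: untreated, TGF-β1 protein at 10 ng/ml with its own control, PA at 500 µM with its own control, and OA at 500 µM with its own control. PA and OA are not spelled out in the labels, nor is what the controls received. Treatment lasted 5 days after 20 days of culture for TGF-β1 and PA, and the labels describe no schedule for OA. All libraries come from 1 line, and nothing in the labels says that replicates came from separate differentiations, so the p-values measure the spread between these libraries, which may be technical.

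TGF-β ligands are secreted in a latent form and, once released, bring together the type II receptor TGFBR2 and the type I receptor TGFBR1, which phosphorylates SMAD2 and SMAD3. TGFBR3 (betaglycan) and ENG (endoglin) are coreceptors that bind ligand without a kinase domain of their own, the first widely expressed and the second best known from endothelial and mesenchymal cells. INHBA encodes the βA subunit of activin A, a ligand of the same family that uses activin receptors and the same SMADs. In the liver this pathway is the main driver of collagen production by stellate cells and myofibroblasts.

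The promoters of the 4 ligand genes are shown because they differ from one another in base composition and core motif. Each line gives the 250 bases before the MANE transcription start, 5′ to 3′ on the gene's strand, from the RefSeq promoter table (GRCh38.p14). Capitals mark TATAAA and, in TGFB2, the SMAD-box letters CAGAC. No base of these windows lies in an exon that GENCODE v44 annotates for the same gene. Exons of other genes were not checked. The windows of TGFB3 and INHBA lie inside the gene span of longer transcripts and are therefore intronic there.
TGFB1, chr19:41353923-41354172, minus strand: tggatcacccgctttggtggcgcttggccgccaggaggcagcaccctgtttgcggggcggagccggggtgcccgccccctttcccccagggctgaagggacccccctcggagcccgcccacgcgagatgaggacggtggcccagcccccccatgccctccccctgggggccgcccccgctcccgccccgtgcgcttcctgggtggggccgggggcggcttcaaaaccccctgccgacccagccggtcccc
TGFB2, chr1:218345086-218345335, plus strand: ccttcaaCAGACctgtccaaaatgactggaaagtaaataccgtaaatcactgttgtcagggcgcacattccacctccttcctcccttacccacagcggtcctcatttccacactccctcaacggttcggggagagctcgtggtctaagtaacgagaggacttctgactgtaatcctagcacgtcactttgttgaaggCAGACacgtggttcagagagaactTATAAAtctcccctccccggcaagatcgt
TGFB3, chr14:75981996-75982245, minus strand: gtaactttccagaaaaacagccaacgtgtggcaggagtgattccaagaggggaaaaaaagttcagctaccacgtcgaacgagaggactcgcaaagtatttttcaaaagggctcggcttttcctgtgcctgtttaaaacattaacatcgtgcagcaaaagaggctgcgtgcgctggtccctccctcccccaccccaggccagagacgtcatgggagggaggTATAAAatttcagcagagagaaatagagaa
INHBA, chr7:41703091-41703340, minus strand: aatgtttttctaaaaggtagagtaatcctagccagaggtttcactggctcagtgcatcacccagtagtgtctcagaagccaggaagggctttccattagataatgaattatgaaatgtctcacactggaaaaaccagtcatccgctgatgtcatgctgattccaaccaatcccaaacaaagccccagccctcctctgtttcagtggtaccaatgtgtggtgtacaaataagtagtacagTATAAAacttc

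TATAAA, searched on the transcribed strand's letters and their reverse complement, was found in 10.8% of the 34943 RefSeq promoters of this length. It starts 29 bases before the start site in TGFB2, 30 bases before it in TGFB3 and 11 bases before it in INHBA, and is not in the TGFB1 window. The TGFB1 window is 76.8% G or C against a median of 58% over all promoters, TGFB2 50.4%, TGFB3 49.2% and INHBA 42.8%. CAGAC or its complement GTCTG was found in 38% of all promoters, with 2 copies in TGFB2 and none in the other 3 ligand windows. Of the receptor windows, that of TGFBR1 holds 1 copy and the others none. The part of these motifs in the levels below was not tested. TGACTCA, the consensus of AP-1, was found in 4.22% of all promoters and in none of the 8 members' windows. The 4 receptor windows hold no TATAAA. The genes lie at chromosome 19, 41301587 to 41353922 (TGFB1), chromosome 1, 218345336 to 218444619 (TGFB2), chromosome 14, 75958097 to 75983011 (TGFB3), chromosome 7, 41667168 to 41705834 (INHBA), chromosome 9, 99104038 to 99154192 (TGFBR1), chromosome 3, 30606601 to 30694142 (TGFBR2), chromosome 1, 91680343 to 91906335 (TGFBR3) and chromosome 9, 127815013 to 127854658 (ENG), all in GRCh38 by GENCODE v44.

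Levels are given in CPM, the unique molecular identifiers (UMIs) of a gene summed over the kept cells of a library and scaled to the library's UMIs over the 32703 shared identifiers. Kept cells numbered 3089 to 12427 per library and held 6880807 to 91184130 UMIs. The first control libraries of TGF-β1 and PA stood apart by their depth, with medians of 1310 and 1747 UMIs per kept cell against 2288 to 14304 in the others. The kept barcodes of any 2 libraries overlapped by at most 0.581% of the smaller one. Cells were split by a gate that uses no member gene. EPCAM-positive cells had at least 1 EPCAM UMI and none of COL1A2 or COL3A1, and collagen-positive cells had at least 2 UMIs of COL1A2 and COL3A1 together and none of EPCAM. The remaining epithelial list (CDH1, KRT8, KRT18, KRT19) and mesenchymal list (COL1A1, COL6A3, LUM, DCN, PDGFRA, PDGFRB, VIM) followed the gate: in ULA day 21 organoids the 7 mesenchymal genes summed to 262 to 289 CPM in EPCAM-positive and 5354 to 6228 CPM in collagen-positive cells. The gap was narrower with TGF-β1, at 5166 to 5957 CPM in EPCAM-positive and 9594 to 10329 CPM in collagen-positive cells. Collagen-positive cells of the OA libraries carried 3503 to 3818 CPM of the epithelial list against 868 to 964 CPM in those of the OA control. The 7 endothelial markers (PECAM1, CDH5, VWF, KDR, TEK, ERG and CLDN5) summed to 7.62 to 38.2 CPM in collagen-positive cells. Most of this sum lay in KDR, TEK, ERG and CLDN5. PECAM1 was at 0 to 1.28 CPM, CDH5 at 0 to 1.68 CPM and VWF at 0 to 0.493 CPM.

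Collagen-positive cells made up 36.9%, 56.3% and 35.5% of kept cells in the ULA day 21 libraries and 49.2% and 29.0% in the day 34 libraries. In OS organoids they made up 37.3% and 25.6% of untreated cells, 3.52% and 3.28% of TGF-β1 control cells, 6.86% and 8.78% with TGF-β1, 5.12% and 8.15% of PA control cells, 3.90% and 5.35% with PA, 33.2% and 34.2% of OA control cells, and 1.72% and 1.09% with OA. The OA share was thus lower in both libraries than in either OA control library, at 1.40% ± 0.45 against 33.7% ± 0.7 (SD, n = 2 each, exact two-sided permutation p 0.33). With TGF-β1 the share was 7.82% ± 1.35 against 3.40% ± 0.17 (SD, n = 2 each, exact permutation p 0.33). A p of 0.33 is the smallest that 2 against 2 libraries can give. Cells with no EPCAM, COL1A2 or COL3A1 UMI made up 44.7% of TGF-β1 control replicate 1 and 33.9% of PA control replicate 1. In the other OS libraries they made up 24.1% or less. Cells with EPCAM and collagen UMIs together made up 1.93% and 5.24% of TGF-β1 control cells and 15.8% and 8.65% with TGF-β1. Whole-library values below mix these shares with the level inside each class, and in such sums fewer cells of a type and less RNA per cell cannot be told apart.

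**Figure D1:**
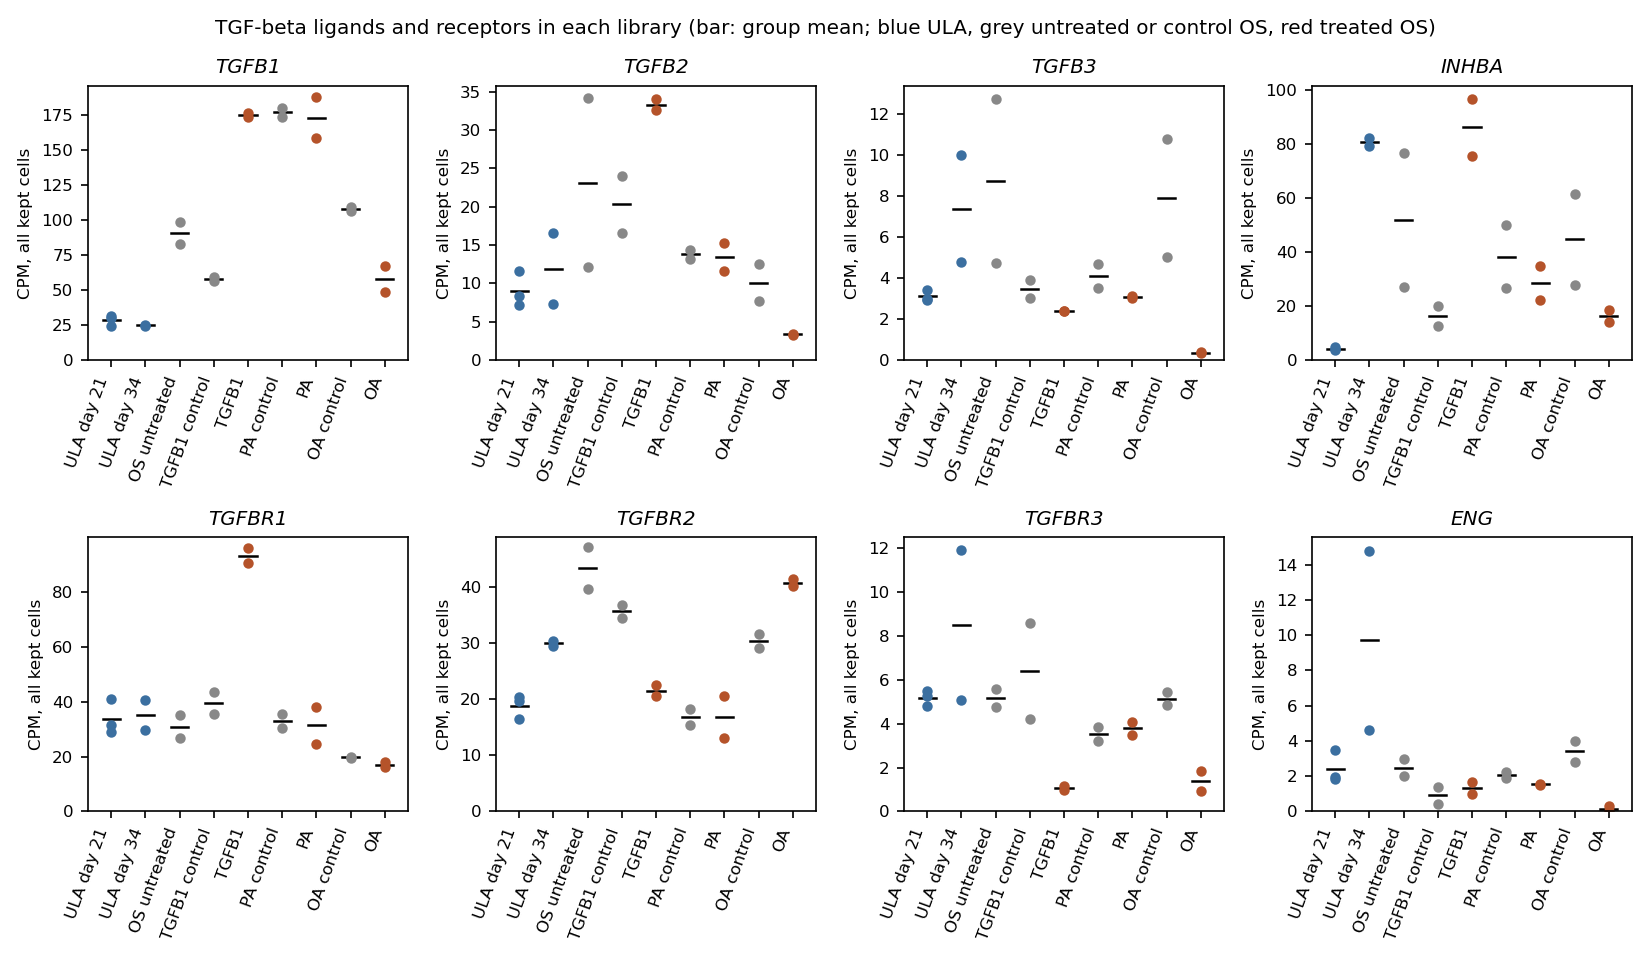
Level of each member in every library. The vertical axes are CPM over all kept cells and start at 0, each point is 1 library of the group named below it, and bars are group means. TGFBR1 is highest in both TGF-β1-treated libraries (95.8 and 90.3 CPM), and TGFB3 and ENG are lowest in the OA libraries.

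The ligand TGFB1 stood at 29.7, 31.4 and 24.2 CPM in ULA day 21 organoids and at 24.9 and 24.4 CPM on day 34, below every OS library. Among OS libraries it was 56.4 and 59.1 CPM in the TGF-β1 control, 48.4 and 67.5 CPM with OA, 98.9 and 82.7 CPM in untreated organoids, 109 and 106 CPM in the OA control, 159 and 188 CPM with PA, 174 and 176 CPM with TGF-β1 and 173 and 180 CPM in the PA control. The last 3 groups overlapped, so the PA control, to which the labels assign no TGF-β1, was as high as the TGF-β1-treated group. The gap between the TGF-β1 control (57.7 ± 1.9 CPM, SD, n = 2) and the PA control (177 ± 5 CPM, n = 2) was about as wide as that between the TGF-β1 control and its treatment. The 7 hepatocyte markers (ALB, AFP, APOA1, APOB, TTR, SERPINA1 and TF) summed to 2525 to 3822 CPM in the TGF-β1 control and to 16552 to 21926 CPM in the PA control, and their part in this gap was not tested. The 8 matrices of the TGF-β1 and PA experiments list 33538 gene identifiers each, while those of the other groups list 36601 or 58676. A long noncoding RNA on the same strand as TGFB1 (ENSG00000286177) is listed only in the 6 matrices of the OA experiment and the untreated group, where it holds 1200 UMIs, so levels of TGFB1 are set side by side across experiments without a test.

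TGFB2 was highest with TGF-β1 at 32.6 and 34.0 CPM, overlapping untreated organoids at 34.2 and 12.1 CPM. It was 24.0 and 16.6 CPM in the TGF-β1 control, 13.2 and 14.4 CPM in the PA control, 11.6 and 15.2 CPM with PA, and 7.65 and 12.5 CPM in the OA control. ULA organoids held 7.16, 11.6 and 8.39 CPM on day 21 and 16.6 and 7.24 CPM on day 34. The OA libraries were lowest and apart from all other groups, at 3.37 and 3.28 CPM of TGFB2.

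TGFB3 was 12.7 and 4.75 CPM in untreated organoids, 5.04 and 10.8 CPM in the OA control, 9.97 and 4.76 CPM on ULA day 34, and 2.93, 3.44 and 2.98 CPM on ULA day 21. The TGF-β1 control held 3.92 and 3.00 CPM, TGF-β1 2.41 and 2.40 CPM, the PA control 3.49 and 4.68 CPM, and PA 3.11 and 3.01 CPM. With OA it was 0.334 and 0.384 CPM, from 18 and 20 UMIs.

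INHBA was 3.82, 3.96 and 4.63 CPM on ULA day 21 and 79.2 and 82.0 CPM on ULA day 34, close to the TGF-β1-treated libraries at 96.7 and 75.3 CPM. Untreated organoids held 76.6 and 26.9 CPM, the OA control 27.6 and 61.5 CPM, and the PA control 26.5 and 49.8 CPM, so replicates differed by more than the means of these groups did. PA organoids held 34.7 and 22.3 CPM, OA organoids 14 and 18.6 CPM and the TGF-β1 control 12.4 and 20.1 CPM of INHBA.

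Of the signalling receptors, TGFBR1 was 95.8 and 90.3 CPM with TGF-β1 and lay between 16.0 and 43.7 CPM in the other 17 libraries. TGFBR2 was highest in untreated organoids (39.7 and 47.1 CPM) and with OA (40.2 and 41.4 CPM), which overlapped. It was lowest in the PA control (15.4 and 18.3 CPM) and with PA (13 and 20.6 CPM), both of which overlapped ULA day 21. The coreceptor TGFBR3 was 11.9 and 5.07 CPM on ULA day 34 and 8.60 and 4.23 CPM in the TGF-β1 control, and lowest with OA (0.927 and 1.86 CPM) and TGF-β1 (0.977 and 1.17 CPM). ENG was 14.8 and 4.61 CPM on ULA day 34 and 0.443 to 4.02 CPM in all other groups except OA, where 16 and 2 UMIs gave 0.297 and 0.0384 CPM.

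**Figure D2:**
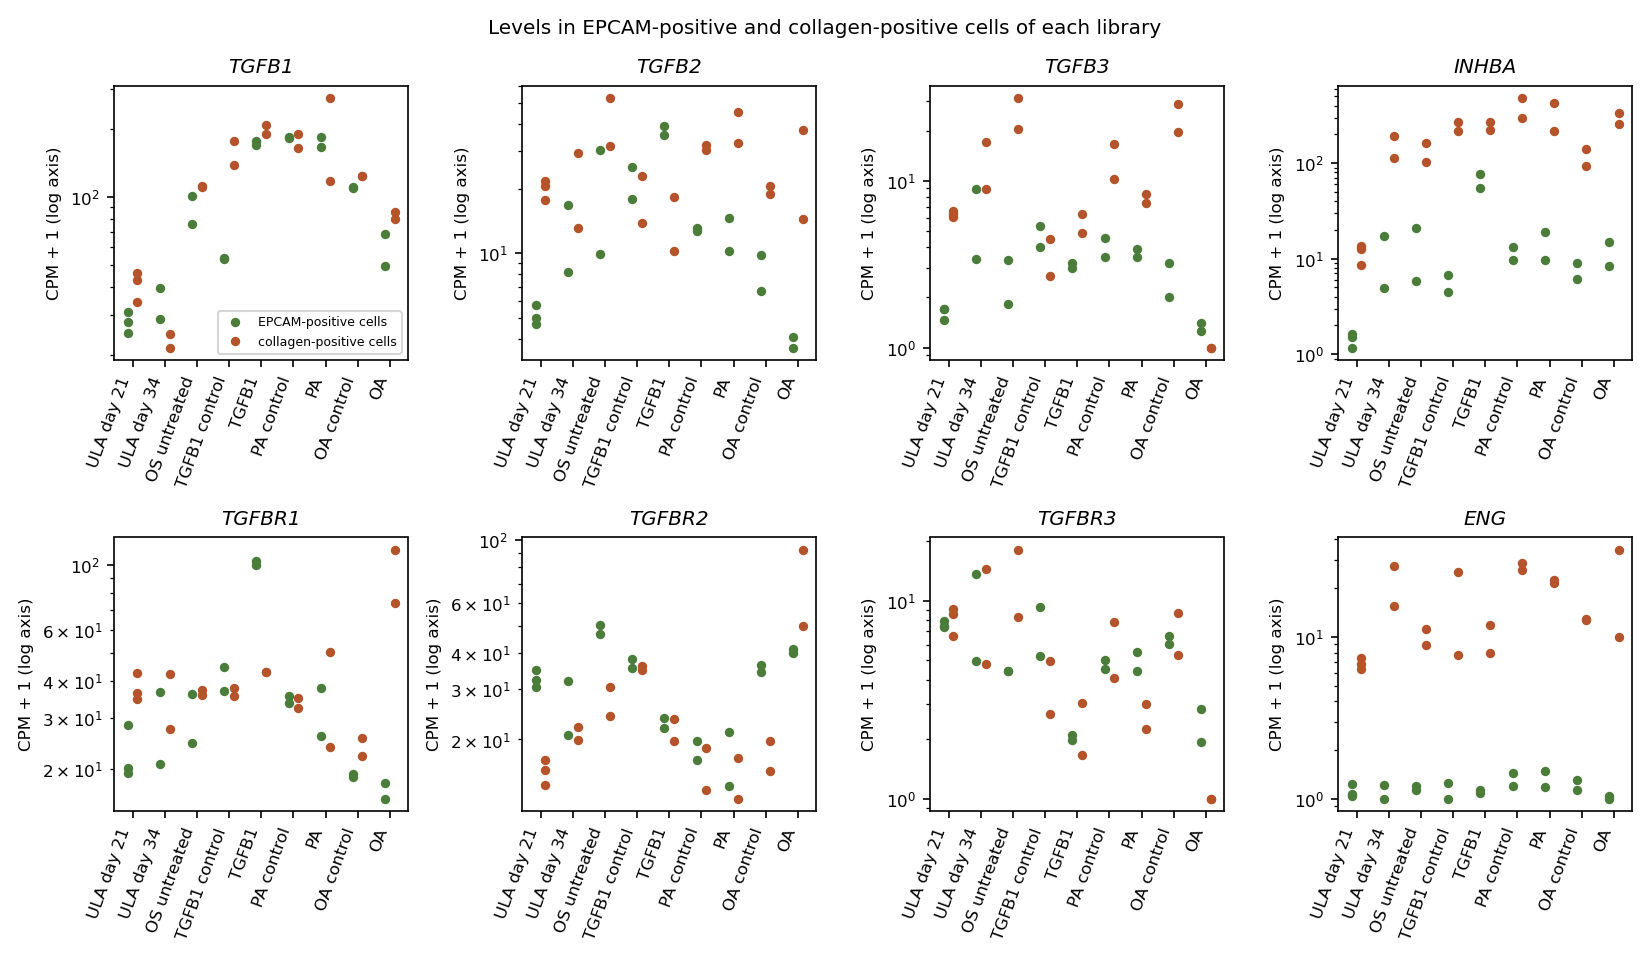
Level of each member in EPCAM-positive (green) and collagen-positive (red) cells of each library, as CPM + 1 on a log axis, 1 point per library and class. ENG and INHBA are higher in collagen-positive cells of every library. The ULA day 34 EPCAM-positive points and the OA collagen-positive points include libraries with 23 and 35 cells.

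Inside untreated and control OS organoids, where every library had enough cells of both classes, 5 members were higher and 1 was lower in collagen-positive than in EPCAM-positive cells of the same library. The background is high, since 57.7% of the 18575 genes tested differed between these classes (24.5% higher and 33.3% lower in collagen-positive cells), and in single groups 34.6% (TGF-β1 control), 33.9% (PA control), 48% (untreated) and 50% (OA control). ENG was 6.70 to 27.7 CPM in collagen-positive and 0 to 0.449 CPM in EPCAM-positive cells, a log2 difference of 6.09 (SE 0.22, edgeR adjusted p 2.2e-25). The 6.70 CPM rests on 4 UMIs, in TGF-β1 control replicate 1. The 27.7 and 0.449 CPM rest on 9 and 2 UMIs, in PA control replicate 1. INHBA was 91.3 to 475 CPM against 3.45 to 20.0 CPM, a log2 difference of 4.59 (SE 0.11, edgeR adjusted p 6.2e-32). Neither gene overlapped between the classes. TGFB3 had a mean log2 difference of 2.37 (SE 0.26, edgeR adjusted p 1.5e-10) over the 4 groups, a call that was lost with cells thinned to 2000 UMIs (0.51, edgeR adjusted p 0.95) and kept in the other 12 alternatives. By group, TGFB3 was 3.84 (SE 0.26) higher on the log2 scale in untreated and 3.81 (SE 0.25) in OA control organoids, 1.98 (SE 0.34) in the PA control, and -0.14 (SE 0.53, edgeR adjusted p 0.90) in the TGF-β1 control, where only 1 and 7 UMIs fell in collagen-positive cells.

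Differences of the remaining members were smaller. TGFB2 was higher in collagen-positive cells by 0.81 (SE 0.13, edgeR adjusted p 1.2e-06) and TGFB1 by 0.41 (SE 0.08, edgeR adjusted p 3.2e-05) on the log2 scale. The excess of TGFB2 was not seen in the TGF-β1 control. Collagen-positive cells there held 3.42% and 3.00% of TGFB2 UMIs, against 3.78% and 3.88% of all UMIs. EPCAM-positive cells there held 57.1% and 88.9% of TGFB2 UMIs, against 56.9% and 87.7% of all UMIs. For TGFB1 the mean rests on the TGF-β1 control, with 137 and 177 CPM in collagen-positive against 52.1 and 52.7 CPM in EPCAM-positive cells and a log2 difference of 1.60 (SE 0.18, edgeR adjusted p 8.3e-10). In the other 3 groups the difference of TGFB1 ranged from -0.17 (SE 0.17) to 0.18 (SE 0.15) and none passed the threshold. TGFBR2 was lower in collagen-positive cells by -0.63 (SE 0.10, edgeR adjusted p 4.5e-07) on the log2 scale, with 45.7 and 49.1 CPM in EPCAM-positive and 23.2 and 29.4 CPM in collagen-positive cells of untreated organoids. The classes lay closer in the TGF-β1 and PA controls. Collagen-positive cells held 3.60% and 3.82% of TGFBR2 UMIs in the TGF-β1 control, against 3.78% and 3.88% of all UMIs. In the PA control they held 3.77% and 6.53%, against 4.72% and 6.77% of all UMIs. TGFBR1 (-0.01, SE 0.07, edgeR adjusted p 0.97) and TGFBR3 (0.40, SE 0.21, edgeR adjusted p 0.11) did not pass, although TGFBR3 was called in 5 of 13 alternatives (0.50 to 0.58).

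In ULA organoids 7 of the 8 members differed between the classes, against 53.3% of 19839 genes (25.8% higher and 27.5% lower), with 68.6% called on day 21 and 22.8% on day 34. ULA day 34 replicate 1 had 23 EPCAM-positive cells and was left out, so day 34 rests on 1 library in this fit, which is assumed to vary like the day 21 libraries. ENG (5.61, SE 0.35), INHBA (4.0, SE 0.16), TGFB3 (2.24, SE 0.23), TGFB2 (1.33, SE 0.15) and TGFBR1 (0.35, SE 0.10) were higher in collagen-positive cells on the log2 scale, with edgeR adjusted p from 9.6e-17 to 0.0036. TGFBR2 (-1.07, SE 0.11) and TGFBR3 (-0.96, SE 0.16) were lower, with edgeR adjusted p 6.6e-09 and 2.3e-05. The TGFBR1 call was lost when other mesenchymal markers defined the gate (0.20, edgeR adjusted p 0.079) and with thinned cells (0.23, edgeR adjusted p 0.12). TGFB1 did not pass on average (-0.21, SE 0.10, edgeR adjusted p 0.073). It was higher in collagen-positive cells of the 3 day 21 libraries (0.30, SE 0.09, edgeR adjusted p 0.0039), and the 1 day 34 library gave -0.72, with no replicate of its own. TGFBR3 differed by -0.16 (SE 0.14, edgeR adjusted p 0.29) on day 21 and by -1.76 in the 1 day 34 library. Its average was 0.02 when other mesenchymal markers defined the gate and 0.36 with thinned cells, and neither passed. TGFBR2 was 29.6 to 34.1 CPM in EPCAM-positive and 12.9 to 15.9 CPM in collagen-positive cells of day 21, with no overlap.

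The TGF-β1 comparison asks how the pathway's own components respond to its ligand. TGFB1, INHBA and TGFBR1 rose and TGFBR3 fell in whole libraries, 4 members called against 22.2% of 19366 genes (10.9% higher and 11.3% lower). TGFB1 rose from 56.4 and 59.1 CPM to 174 and 176 CPM (log2 1.79, SE 0.20, edgeR adjusted p 5.4e-05). These are transcripts of the organoids, since the added ligand was protein. INHBA rose from 12.4 and 20.1 CPM to 96.7 and 75.3 CPM (log2 2.56, SE 0.48, edgeR adjusted p 0.0022). TGFBR1, the kinase that carries the signal, rose from 43.7 and 35.6 CPM to 95.8 and 90.3 CPM (log2 1.44, SE 0.21, edgeR adjusted p 3.4e-04). The coreceptor TGFBR3 fell from 8.60 and 4.23 CPM to 0.977 and 1.17 CPM (log2 -2.33, SE 0.37, edgeR adjusted p 6.8e-04). All 4 members kept their direction and call in each of the 12 alternatives run. None of them overlapped between treated and control libraries, but 2 against 2 libraries separate fully with a probability of 0.33 without any difference. The share of all genes without overlap was not counted in any comparison. TGFB2 (16.6 and 24.0 to 32.6 and 34.0 CPM, log2 0.93, SE 0.34, edgeR adjusted p 0.065) and TGFBR2 (34.5 and 36.9 to 20.5 and 22.6 CPM, log2 -0.53, SE 0.22, edgeR adjusted p 0.10) did not pass, although their libraries did not overlap either; TGFB2 was called in 4 of 12 alternatives. TGFB3 (log2 -0.31, SE 0.39) and ENG (log2 0.54, SE 0.56) did not pass. Scaling by library totals alone moved the median of all genes from -0.05 to -0.24 on the log2 scale and gave 3 members higher and 2 lower, TGFBR2 being added (log2 -0.73, edgeR adjusted p 0.029). The 7 mesenchymal markers summed to 904 to 1629 CPM in the control and 5707 to 6344 CPM with TGF-β1, and the 3 cycling markers (MKI67, TOP2A and CDK1) to 141 to 235 CPM and 8.65 to 8.75 CPM. The part of either list in the whole-library values was not tested.

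In EPCAM-positive cells alone the same 4 members and TGFB2 passed, against 25% of 17527 genes (12.3% higher and 12.7% lower). TGFB1 went from 52.1 and 52.7 CPM to 169 and 175 CPM (log2 1.91, SE 0.21, edgeR adjusted p 2.0e-05). INHBA went from 3.45 and 5.80 CPM to 75.3 and 53.6 CPM (log2 3.90, SE 0.56, edgeR adjusted p 2.1e-04), or from 31 and 266 UMIs to 2380 and 1596 UMIs. TGFBR1 went from 43.8 and 36.1 CPM to 102 and 99.3 CPM (log2 1.54, SE 0.21, edgeR adjusted p 1.3e-04), and TGFBR3 from 8.34 and 4.28 CPM to 0.980 and 1.11 CPM (log2 -2.32, SE 0.36, edgeR adjusted p 4.0e-04). TGFB2 (log2 1.05, SE 0.36, edgeR adjusted p 0.044) passed in 2 of 10 alternatives only. TGFB3, TGFBR2 and ENG did not pass. In these cells the cycling markers summed to 143 to 253 CPM in the control and 2.99 to 5.72 CPM with TGF-β1, and the 6 stellate or smooth muscle markers (LRAT, RELN, LHX2, RGS5, DES and ACTA2) to 43.6 to 95.6 CPM and 15.5 to 17.4 CPM, with LHX2 at 0. The 3 squamous markers (KRT5, TP63 and KRT14) summed to 0.111 to 0.393 CPM and 12.3 to 13.9 CPM, and the 7 hepatocyte markers to 2719 to 4075 CPM and 5206 to 6138 CPM. Their part in the member values was not tested.

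In collagen-positive cells none of the 8 members passed, in a fit that called only 0.0141% of 14222 genes and rested on 279 to 606 cells per library. edgeR gave 1684 genes an unadjusted p under 0.05 there. TGFB1 was 137 and 177 CPM in the control and 207 and 188 CPM with TGF-β1 (log2 0.55, SE 0.32, edgeR adjusted p 0.50). INHBA was 214 and 272 CPM against 268 and 221 CPM (log2 0.23, SE 0.35, edgeR adjusted p 0.82), and TGFBR1 36.9 and 34.5 CPM against 42.0 and 41.8 CPM (log2 0.47, SE 0.30, edgeR adjusted p 0.53). The INHBA libraries overlapped, those of TGFB1 and TGFBR1 did not.

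The difference of the effect between the classes was tested with library as a block, and 3 members passed against 7.27% of 18575 genes (4.17% lower). In data simulated at the depth of whole libraries, which are deeper than the class sums, 10.9% of the calls of this fit were false. The log2 effect in collagen-positive cells was lower than in EPCAM-positive cells by -3.65 for INHBA (SE 0.28, edgeR adjusted p 4.9e-13), -1.32 for TGFB1 (SE 0.23, edgeR adjusted p 7.9e-05) and -1.06 for TGFBR1 (SE 0.22, edgeR adjusted p 7.1e-04). INHBA kept this call in every alternative. TGFB1 lost it without control replicate 2 (-1.06, edgeR adjusted p 0.057). TGFBR1 lost it without control replicate 2 (-0.87, edgeR adjusted p 0.24) and without TGF-β1 replicate 1 (-0.99, edgeR adjusted p 0.055). The fall of TGFBR3 did not differ between the classes by this test (1.14, SE 0.81, edgeR adjusted p 0.55), on 1 to 8 UMIs per library in collagen-positive cells.

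**Figure D3:**
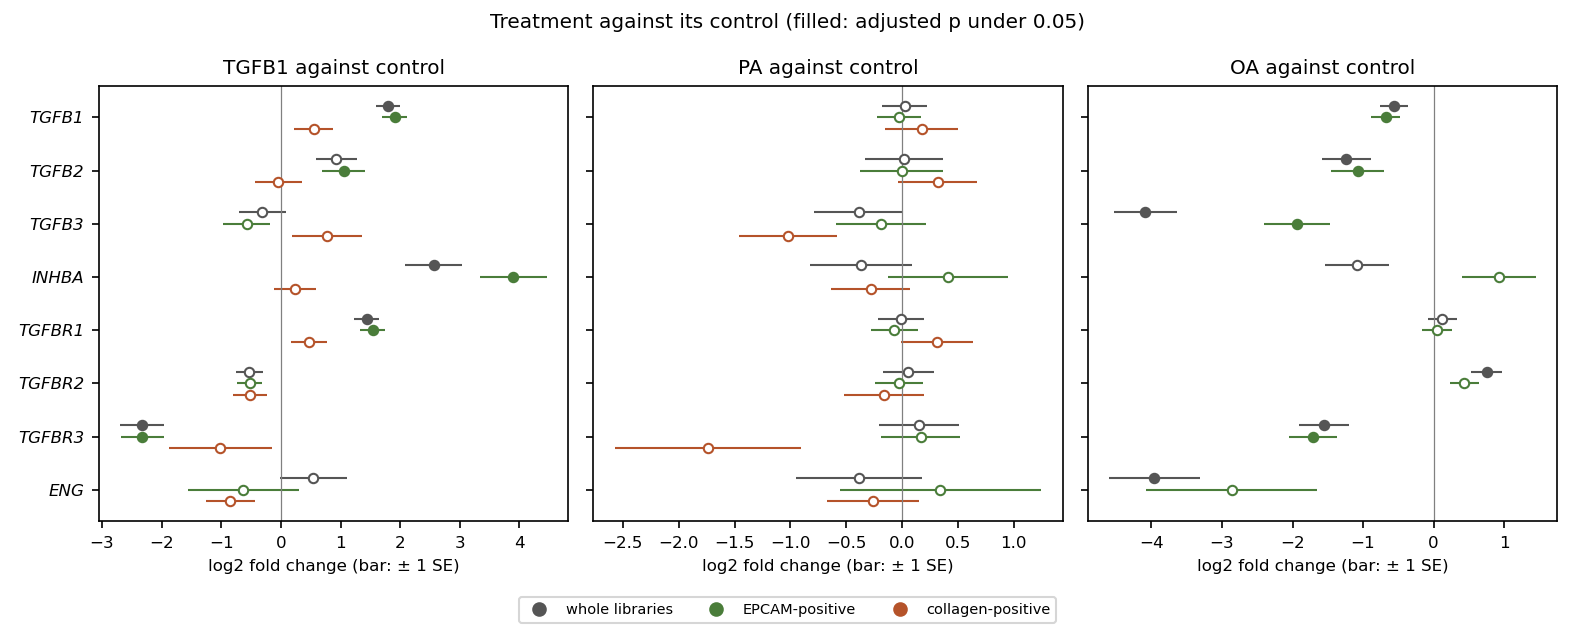
Log2 fold change of each member with treatment against its own control in whole libraries (grey), EPCAM-positive cells (green) and collagen-positive cells (red), with bars of 1 SE; filled points have an adjusted p under 0.05. With TGF-β1 the INHBA points lie at 3.90 in EPCAM-positive and 0.23 in collagen-positive cells, and no member is called with PA; collagen-positive cells were too few to test with OA.

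INHBA in EPCAM-positive cells was set beside ENG and the 7 mesenchymal markers. Each is given as a percent of its level in collagen-positive cells of the same library. EPCAM-positive cells hold no COL1A2 or COL3A1 UMI by the gate, which by itself favours low levels of other mesenchymal genes there. The size of that effect was not tested. INHBA was 1.61% and 2.13% in the control and 28.0% and 24.3% with TGF-β1. COL1A1, the fibrillar collagen chain that the gate did not use, went from 0.740% and 0.424% to 8.39% and 9.18%, and VIM, the intermediate filament vimentin, from 23.8% and 28.9% to 126% and 143%. The other 5 markers stayed low in both groups. LUM was 0.511% and 0.302% in the control and 0.807% and 1.24% with TGF-β1, COL6A3 0.420% and 0.137% against 0.278% and 0.200%, and DCN 0.0922% and 0.450% against 0.211% and 0%. PDGFRA was 0.814% and 0.701% against 2.30% and 1.68%, PDGFRB 0.608% and 0.255% against 0.343% and 0.112%, and ENG 0% and 1.08% against 1.36% and 1.25%. The ENG percents rest on 0 and 12 UMIs in EPCAM-positive cells of the control and on 3 and 4 UMIs with TGF-β1. Of the INHBA UMIs of a library, 15.8% and 25.3% lay in EPCAM-positive cells in the control and 55.9% and 54.1% with TGF-β1. Of the UMIs of all genes, 56.9% and 87.7% lay in these cells in the control and 71.8% and 75.9% with TGF-β1.

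**Figure D4:**
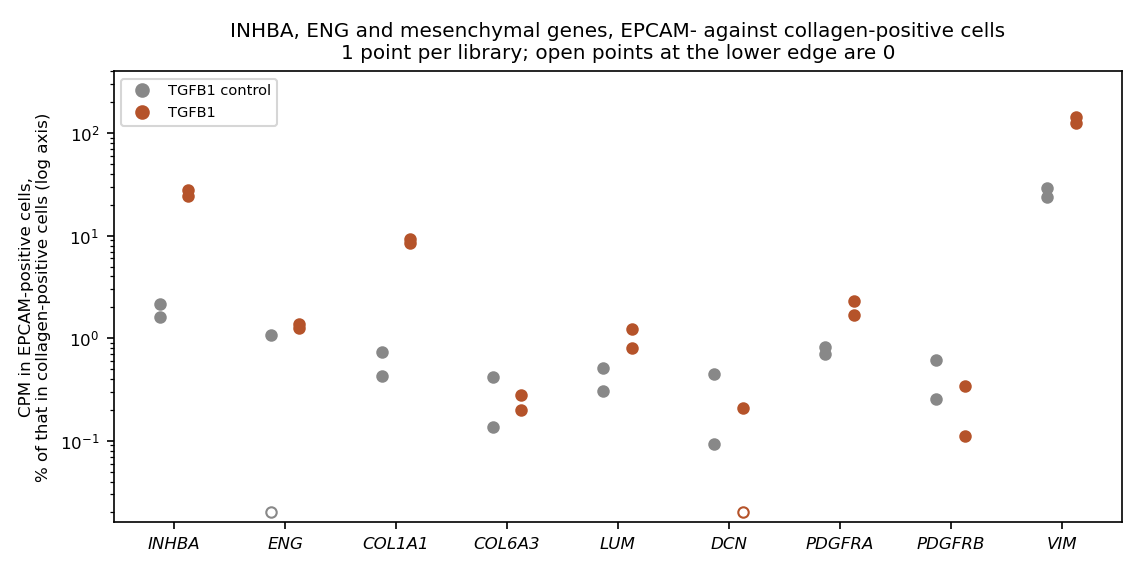
Level in EPCAM-positive cells as a percent of the level in collagen-positive cells of the same library (log axis) for INHBA, ENG and the 7 mesenchymal markers, 1 point per library, in the TGF-β1 control (grey) and with TGF-β1 (red); an open point at the lower edge is 0. INHBA lies at 28.0% and 24.3%, COL1A1 at 8.39% and 9.18% and VIM at 126% and 143% with TGF-β1, while the other markers lie at 2.30% or lower.

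No member was called with PA, in whole libraries (9 of 19366 genes called, 0.0465%), in EPCAM-positive cells (0.103%) or in collagen-positive cells (0.0281%), at edgeR adjusted p under 0.05. An unadjusted p under 0.05 was found for 540 genes in whole libraries, and DESeq2 called 51 genes and no member. TGFB1 was 173 and 180 CPM in the control and 159 and 188 CPM with PA (log2 0.02, SE 0.20), and TGFBR1 30.2 and 35.6 CPM against 24.6 and 38.2 CPM (log2 -0.01, SE 0.21). Both control libraries lay inside the range of the PA libraries for these genes. TGFB2 (log2 0.02, SE 0.35), TGFBR2 (log2 0.06, SE 0.23) and TGFBR3 (log2 0.15, SE 0.36) did not pass either. INHBA (log2 -0.37, SE 0.46), TGFB3 (log2 -0.39, SE 0.40) and ENG (log2 -0.38, SE 0.57) have errors wide enough that changes of this size or somewhat more would not have been detectable. Within collagen-positive cells the largest values were those of TGFBR3 (log2 -1.74, SE 0.84) and TGFB3 (log2 -1.02, SE 0.44), neither of which passed. No member's effect differed between the classes, where 0.0861% of genes were called.

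With OA 6 members were called in whole libraries, 5 lower and 1 higher, against a background of 43.3% of 19366 genes (21.7% higher and 21.6% lower), so the number of calls alone says little about the members. TGFB3 fell from 5.04 and 10.8 CPM to 0.334 and 0.384 CPM (log2 -4.09, SE 0.45, edgeR adjusted p 1.9e-05). ENG fell from 2.79 and 4.02 CPM to 0.297 and 0.0384 CPM (log2 -3.96, SE 0.64, edgeR adjusted p 3.2e-04). TGFBR3 fell from 5.43 and 4.84 CPM to 0.927 and 1.86 CPM (log2 -1.55, SE 0.35, edgeR adjusted p 0.0031). These 3 members passed in all 12 alternatives. TGFB2 (log2 -1.24, SE 0.35, edgeR adjusted p 0.012), TGFB1 (109 and 106 to 48.4 and 67.5 CPM, log2 -0.56, SE 0.20, edgeR adjusted p 0.036) and TGFBR2, the member that rose (31.7 and 29.2 to 40.2 and 41.4 CPM, log2 0.76, SE 0.22, edgeR adjusted p 0.014), lost their call in 3 or 4 of 12 alternatives. Scaling by library totals alone moved the median of all genes from -0.08 to -0.43 on the log2 scale and gave 6 members lower and none higher: INHBA passed (log2 -1.45, edgeR adjusted p 0.023), TGFBR2 did not (log2 0.42, edgeR adjusted p 0.13), and TGFBR1 turned from 0.12 (SE 0.20) to -0.22, neither value being called. INHBA (log2 -1.08, SE 0.46, edgeR adjusted p 0.072) did not pass, but was called in 6 of 12 alternatives, with values from -1.50 without OA control replicate 1, which was called, to -0.51 without OA control replicate 2, which was not.

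Collagen-positive cells, the class in which ENG and INHBA were higher in every control library, made up 33.7% of control and 1.40% of OA cells. The 7 macrophage or leukocyte markers summed to 11.1 to 15.9 CPM in the OA control and 71.3 to 83.2 CPM with OA, where PTPRC, CD14 and C1QA were at 0 UMIs, and the 7 endothelial markers to 6.39 to 9.29 CPM and 3.99 to 4.82 CPM; their part in the member values was not tested. EPCAM-positive cells made up 27.7% of control and 88.4% of OA cells. Cells with EPCAM and collagen UMIs together, in neither class, made up 26.7% and 32.0% of control and 5.60% and 4.47% of OA cells. Inside EPCAM-positive cells 4 members were lower against 35.9% of 17527 genes (16.8% lower). TGFBR3 was 5.05 and 5.67 CPM in the control and 0.940 and 1.85 CPM with OA (log2 -1.71, SE 0.34, edgeR adjusted p 0.0018), as large a change as in whole libraries. TGFB3 was 1.00 and 2.19 CPM against 0.260 and 0.411 CPM (log2 -1.94, SE 0.46, edgeR adjusted p 0.0054), smaller than the whole-library change of -4.09. TGFB1 was 109 and 109 CPM against 48.3 and 67.8 CPM (log2 -0.68, SE 0.20, edgeR adjusted p 0.017), and TGFB2 5.66 and 8.78 CPM against 2.64 and 3.06 CPM (log2 -1.08, SE 0.38, edgeR adjusted p 0.040). None of the 4 overlapped between groups, but the share of all genes that did not overlap was not counted. With cells thinned to 2000 UMIs before gating, none of the 4 passed (log2 -1.04 for TGFBR3, -1.19 for TGFB3, -0.62 for TGFB1 and -0.95 for TGFB2, edgeR adjusted p 0.065 to 0.27). TGFBR3 passed in the other 9 alternatives and TGFB3 in 7 of 10, its call being lost also without OA control replicate 2 (log2 -1.42) and without OA replicate 1 (log2 -1.66). TGFB1 passed in 5 and TGFB2 in 4 of 10, TGFB1 losing its call without either control library or OA replicate 1, TGFB2 without any 1 of the 4 libraries, and both when other mesenchymal markers defined the gate. The stellate or smooth muscle markers summed to 64.2 to 128.8 CPM in EPCAM-positive cells of the control and 8.58 to 11 CPM with OA, and the cycling markers to 130.6 to 139.7 CPM and 58.0 to 68.0 CPM. In the same cells the mesenchymal markers summed to 916 to 1070 CPM in the control and 182 to 214 CPM with OA, the macrophage or leukocyte markers to 15.2 to 20.8 CPM and 73.7 to 87.2 CPM, with PTPRC, CD14 and C1QA at 0 in both, and the endothelial markers to 0.378 to 1.05 CPM and 3.91 to 4.84 CPM. The part of these lists in the member values was not tested. INHBA was 5.14 and 8.10 CPM against 7.30 and 13.8 CPM in these cells (log2 0.93, SE 0.52, edgeR adjusted p 0.18) and TGFBR2 35.4 and 33.4 CPM against 39.0 and 40.5 CPM (log2 0.44, SE 0.21, edgeR adjusted p 0.12).

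The 53 and 35 collagen-positive cells of the OA libraries were too few to test. INHBA stood at 255 and 330 CPM in them, from 84 and 74 UMIs, against 91.3 and 141 CPM in the OA control, and TGFBR1 at 72.8 and 112 CPM against 24.5 and 21.1 CPM. TGFBR2 stood at 91.0 and 49.1 CPM against 18.8 and 14.5 CPM. All 6 OA values lie above both control values of their gene, with no test, and the share of all genes that did so was not counted. TGFB1 went the other way, lower in both OA libraries than in either control library. TGFB2 and ENG went both ways, ENG at 33.4 and 8.92 CPM, from 11 and 2 UMIs, against 11.8 and 11.9 CPM. No UMI of TGFB3 or TGFBR3 was found in these OA cells, which allows up to 9.10 and 13.4 CPM. That is below the 18.7 and 28.0 CPM of TGFB3 in the control but not below its 7.64 and 4.36 CPM of TGFBR3. The epithelial list was higher in these cells than in those of the control, as given above, and its part in these values was not tested.

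The OA control and the untreated organoids, which share the OA control libraries with the comparison above, are a pair of groups without PA, OA or TGF-β1. No member was called, against 0.573% of 19366 genes, by edgeR or DESeq2; edgeR gave 2822 genes an unadjusted p under 0.05. TGFB2 had the largest value (log2 -1.05, SE 0.34, edgeR adjusted p 0.18), from 34.2 and 12.1 CPM in untreated to 7.65 and 12.5 CPM in control organoids. It was called in 2 of 12 alternatives, one of which left out untreated replicate 2. INHBA (76.6 and 26.9 against 27.6 and 61.5 CPM, log2 -0.07, SE 0.45) and TGFB3 (12.7 and 4.75 against 5.04 and 10.8 CPM, log2 -0.01, SE 0.37) overlapped between the groups. TGFB1 (log2 0.40, SE 0.20), TGFBR1 (log2 -0.50, SE 0.20), TGFBR2 (log2 -0.37, SE 0.22), TGFBR3 (log2 0.14, SE 0.33) and ENG (log2 0.59, SE 0.51) were called in none of the 12 alternatives. Other such groups stood further apart. The TGF-β1 and PA controls held 57.7 ± 1.9 and 177 ± 5 CPM of TGFB1, and 35.7 ± 1.7 and 16.8 ± 2.0 CPM of TGFBR2 (SD, n = 2 each, no test).

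Between day 21 and day 34 in ULA plates INHBA rose in whole libraries from 3.82, 3.96 and 4.63 CPM to 79.2 and 82.0 CPM (log2 4.16, SE 0.17, edgeR adjusted p 2.2e-04), against a background of 15.6% of 22258 genes (8.42% higher). ENG was also called, from 1.93, 3.51 and 1.82 CPM to 14.8 and 4.61 CPM (log2 1.89, SE 0.50, edgeR adjusted p 0.046). The ENG call was lost in 6 of 12 alternatives: without any 1 of the 3 day 21 libraries (log2 1.72 to 2.25, edgeR adjusted p 0.073 to 0.17), without ULA day 34 replicate 1 (log2 0.82, edgeR adjusted p 0.12), with the stricter cell filter (log2 1.64, edgeR adjusted p 0.058) and with the replicate number as a block (log2 1.56, edgeR adjusted p 0.33). The INHBA call was lost with that block (log2 4.27, edgeR adjusted p 0.077) and kept in the other 11 alternatives. TGFB3 (log2 1.12, SE 0.33, edgeR adjusted p 0.058) and TGFBR2 (16.5 to 20.4 CPM against 29.5 and 30.5 CPM, log2 0.55, SE 0.16, edgeR adjusted p 0.058) did not pass, although neither overlapped between days; they were called in 4 and 3 of 12 alternatives. TGFB1 (log2 -0.32, SE 0.17), TGFB2 (log2 0.28, SE 0.37), TGFBR1 (log2 -0.06, SE 0.22) and TGFBR3 (log2 0.59, SE 0.35) did not pass. Day 34 organoids were digested longer than day 21 organoids, per the labels, so day and dissociation cannot be told apart. The 3 squamous markers (KRT5, TP63 and KRT14) summed to 7.29 to 11.7 CPM on day 21 and 275 to 839 CPM on day 34, and the 7 hepatocyte markers to 1948 to 2144 CPM and 81.9 to 752 CPM; their part in the member values was not tested.

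Inside collagen-positive ULA cells 4 members were called, against 18.6% of 17347 genes (11% higher and 7.55% lower). INHBA rose from 11.7, 7.62 and 12.6 CPM to 113 and 190 CPM (log2 3.72, SE 0.28, edgeR adjusted p 3.2e-04), ENG from 5.83, 6.43 and 5.38 CPM to 26.6 and 14.4 CPM (log2 1.68, SE 0.27, edgeR adjusted p 0.0052), and TGFB3 from 5.59, 5.03 and 5.33 CPM to 16.2 and 7.95 CPM (log2 1.07, SE 0.29, edgeR adjusted p 0.037). TGFB1 fell from 45.3, 42.0 and 33.2 CPM to 20.5 and 23.7 CPM (log2 -0.98, SE 0.18, edgeR adjusted p 0.010). None of the 4 overlapped between days, but the share of all genes that did not overlap was not counted. In these cells the squamous markers summed to 0.292 to 0.543 CPM on day 21, with KRT14 at 0, and to 34.9 to 400.1 CPM on day 34. The cycling markers summed to 521 to 748 CPM and 346 to 371 CPM, and the endothelial markers to 7.62 to 9.24 CPM and 10.4 to 14.1 CPM; the part of these lists in the member values was not tested. INHBA passed in all 11 alternatives. The TGFB3 call was lost in 5 of 11, without any 1 of the day 21 libraries (log2 1.05 to 1.10, edgeR adjusted p 0.11 to 0.12), without day 34 replicate 1 (log2 0.47, edgeR adjusted p 0.20) and with the replicate number as a block (log2 0.99, edgeR adjusted p 0.12). The ENG call was lost with that block (log2 1.56, edgeR adjusted p 0.059), and the TGFB1 call without day 21 replicate 1 (log2 -0.90, edgeR adjusted p 0.066). EPCAM-positive cells could not be tested with the gate above, since ULA day 34 replicate 1 held 23 of them. In ULA day 34 replicate 2, with 747 such cells, INHBA was 16.4 CPM against 0.174, 0.620 and 0.507 CPM on day 21. With other mesenchymal markers as the gate, INHBA was called in epithelial cells as well (log2 5.85, SE 0.28, edgeR adjusted p 1.7e-05), and its effect in mesenchymal cells differed from that by -2.06 (SE 0.50, edgeR adjusted p 0.020). Cells that held EPCAM and collagen UMIs together, 29.8% to 59.7% of kept cells per ULA library, are in neither class of the gate used above.

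The other genes of the pathway were read from a list of 53 in 5 roles, of which 48 were tested in each whole-library comparison. With TGF-β1, 24 were higher and 3 lower, against 10.9% higher and 11.3% lower over all genes tested, with a median log2 fold change of 0.79 against -0.05. Genes of latency and activation were higher in 8 of 11. ITGB6 (log2 3.01, SE 0.26) and ITGAV (log2 2.10, SE 0.22), the subunits of an integrin that releases latent TGF-β, led them together with LTBP2 (log2 3.86, SE 0.43). LTBP2 is on the list as a gene named for the latent TGF-β binding protein family. All had edgeR adjusted p of 4.8e-05 or less. Ligand traps were higher in 6 of 9. These included the activin-binding proteins FSTL3 (log2 2.01, SE 0.27) and FST (log2 2.90, SE 0.48) and the nodal antagonist LEFTY2 (log2 5.26, SE 0.75), with edgeR adjusted p from 1.7e-04 to 9.2e-04. Activin receptors and related ligands were lower in 3 of 9, namely GDF11 (log2 -0.87, SE 0.22), ACVR1B (log2 -1.21, SE 0.34) and ACVR2B (log2 -0.65, SE 0.19), with edgeR adjusted p from 0.013 to 0.025.

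Of 11 intracellular components 5 were higher with TGF-β1, led by PMEPA1 (log2 2.23, SE 0.20, edgeR adjusted p 1.2e-05) and SKIL (log2 1.92, SE 0.24, edgeR adjusted p 1.2e-04), both feedback inhibitors of SMAD signalling, and by the ubiquitin ligase SMURF2 (log2 0.63, SE 0.16, edgeR adjusted p 0.014). Of 8 well-known target genes 5 were higher, led by TGFBI (log2 2.64, SE 0.28, edgeR adjusted p 3.1e-05), FN1, which encodes fibronectin (log2 2.93, SE 0.39, edgeR adjusted p 1.8e-04), and COL1A1 (log2 2.15, SE 0.34, edgeR adjusted p 7.0e-04). COL1A1, ACTA2 and DCN are on the mesenchymal or stellate marker lists as well. In EPCAM-positive cells alone the 7 mesenchymal markers summed to 556 to 1164 CPM against 5166 to 5957 CPM. Most of that sum was VIM, at 513 and 1142 CPM in the control and 5601 and 4752 CPM with TGF-β1, and COL1A1 went from 33.5 and 17.2 CPM to 348 and 405 CPM, while each of the other 5 markers was at 4.0 CPM or less in all 4 libraries.

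With OA, 11 of the 48 genes were higher and 24 lower, against 21.7% higher and 21.6% lower over all genes, so the number higher lies near the background. The median was -0.80 against -0.08 over all genes. Target genes were lower in 7 of 8, led by COL1A1 (log2 -5.86, SE 0.40), TGFBI (log2 -2.56, SE 0.28) and the matrix protein POSTN (log2 -5.32, SE 0.61), and traps in 7 of 9, led by the proteoglycans BGN (log2 -6.19, SE 0.46) and DCN (log2 -4.73, SE 0.49) and by FSTL3 (log2 -1.35, SE 0.27). All 6 had edgeR adjusted p of 0.0013 or less. Latency genes were lower in 7 and higher in 3 of 11: LRRC32, which anchors latent TGF-β at the cell surface (log2 -3.88, SE 0.46), and LTBP4 (log2 -1.25, SE 0.18) fell, and ITGB6 rose (log2 2.02, SE 0.25), with edgeR adjusted p of 1.4e-04 or less. Intracellular components were higher in 4 of 11 and lower in none, led by SMAD3 (log2 1.05, SE 0.20), SMURF1 (log2 1.13, SE 0.22) and SMAD2 (log2 0.65, SE 0.16), with edgeR adjusted p from 0.0010 to 0.0057. Of the activin genes GDF11 fell (log2 -1.69, SE 0.23) and the receptor ACVR2A (log2 1.46, SE 0.22) and the hepatokine INHBE (log2 3.70, SE 0.60) rose, with edgeR adjusted p of 3.3e-04 or less. The sum of the 7 mesenchymal markers was 2723 to 4164 CPM in the OA control and 240 to 281 CPM with OA.

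None of the 48 genes was called with PA or between the OA control and untreated organoids, at edgeR adjusted p under 0.05. From day 21 to day 34 in ULA plates 16 were higher and 4 lower, against 15.6% of all genes called and 8.42% higher. The number lower thus lies near the background. The median was 0.65 against 0.01 over all genes. ITGB6 (log2 2.05, SE 0.18), LTBP2 (log2 2.43, SE 0.29) and LTBP3 (log2 1.17, SE 0.19) rose among 7 of 11 latency genes, and ACTA2, smooth muscle actin (log2 1.02, SE 0.17), and CCN2 (log2 1.84, SE 0.36) among 5 of 8 targets, with edgeR adjusted p from 0.0015 to 0.018. Of the traps FST rose (log2 1.82, SE 0.22) and BAMBI (log2 -1.75, SE 0.19) and FMOD (log2 -2.78, SE 0.36) fell, with edgeR adjusted p of 0.0048 or less. PMEPA1 (log2 1.71, SE 0.20) and SKI (log2 0.89, SE 0.15) rose among the intracellular components, and INHBE (log2 -2.15, SE 0.29) and GDF11 (log2 -0.67, SE 0.17) fell, with edgeR adjusted p from 0.0031 to 0.036.

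**Figure D5:**
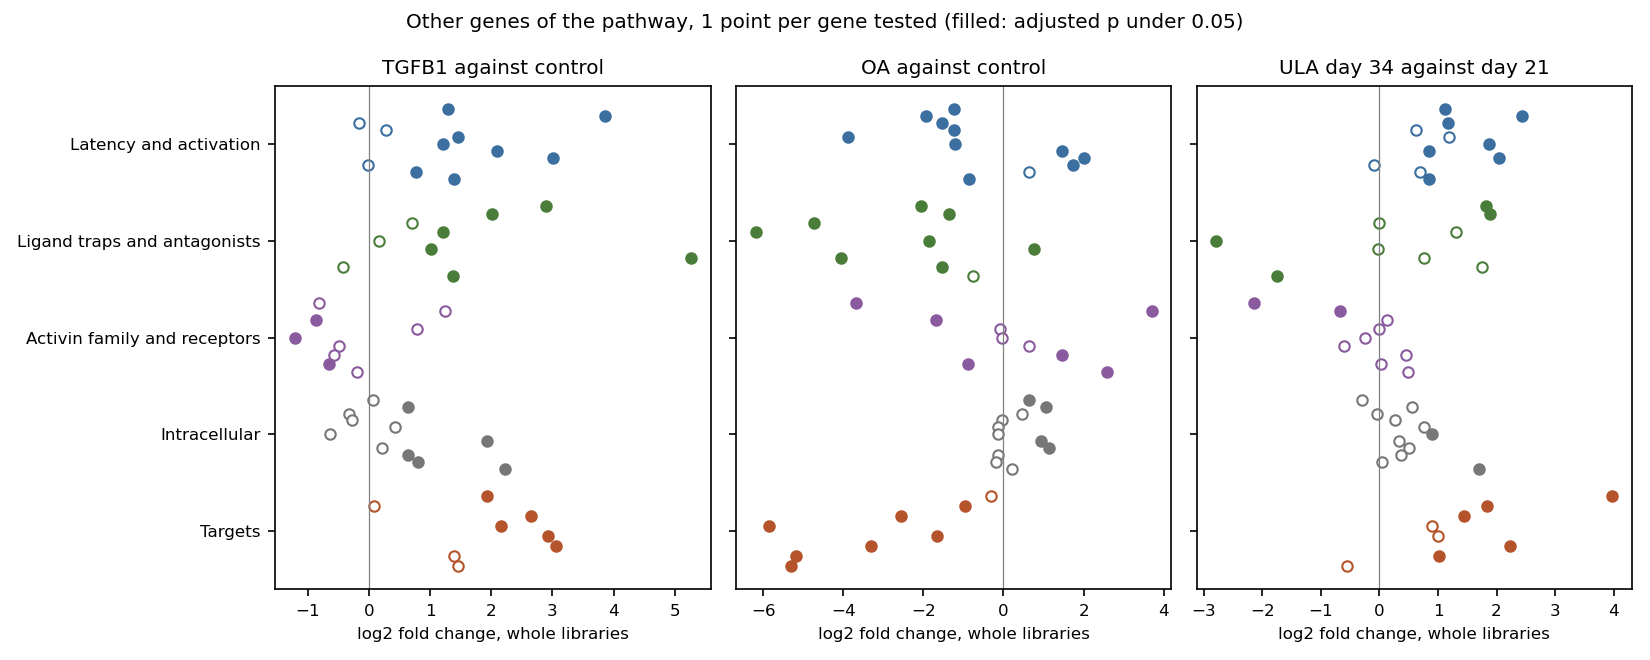
Log2 fold change in whole libraries of the other pathway genes, 1 point per gene tested, by role, for TGF-β1, OA and ULA day 34 against their reference groups; filled points have an adjusted p under 0.05. With TGF-β1 5 of 8 targets are higher, and with OA 7 of 8 are lower.

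Over the 14 OS libraries, the genes whose log2(CPM + 1) ran most nearly parallel to each member were sought among 8736 genes with a mean of at least 10 CPM. These correlations are descriptions, since libraries share treatments, experiments and class shares. The 3 genes nearest to TGFB1 included SUSD4 (Pearson r 0.917) and BOK (0.915), and those nearest to TGFB2 included BNIP2 (0.969) and CNTN4 (0.964). TGFB3 was nearest to MFAP2 (0.971), HMGB1 (0.968) and TRIB2 (0.958). INHBA was nearest to TGFB1I1 (0.943), MSN (0.942) and SYT1 (0.924). Among the receptors TGFBR1 was nearest to PRXL2C (0.969), TIAM2 (0.959) and GPC6 (0.958), TGFBR3 to RELN (0.964), RHNO1 (0.941) and KIF22 (0.938), and ENG to FAH (0.944), CCDC3 (0.927) and CSRP2 (0.926). The 3 genes nearest to TGFBR2 included HIBADH (0.946) and ECT2 (0.942). RELN is also on the stellate marker list. No member was among the 3 genes nearest to another member. TGFB3, TGFBR3 and ENG could not be, since their means over the OS libraries were below 10 CPM. Without that filter, Pearson r between members was highest for TGFB3 and ENG (0.871) and lowest for TGFB1 and TGFBR2 (-0.834). Every gene named above had a higher r with its member than 0.871.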

How the data were processed

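Droplet 3′ libraries (10x version 3 chemistry) were sequenced from 19 samples. The submitters' processing notes name bcl2fastq, Cell Ranger 3.0.2, Scanpy and GRCh38, and per the file headers 13 matrices came from Cell Ranger 3.0.2 and 6 from 6.0.2. The deposited matrices hold raw UMI counts per gene and barcode, not normalized. Kept cells had at least 500 genes and at most 20% of counts from MT- genes; doublets were left in, and removed in an alternative. UMIs were summed per library and per class (at least 50 cells) and tested with edgeR 4.0.16 in R 4.3.3 (quasi-likelihood, TMM, filterByExpr, Benjamini-Hochberg over all genes, threshold 0.05), the 14 OS and the 5 ULA libraries in separate fits; SE is the log2 fold change divided by the square root of F. DESeq2 1.42.0, other scalings, filters, gates, depths, the replicate number as a block and leaving out libraries were alternatives. Shares were compared by exact permutation in SciPy 1.17.1. Levels in CPM use 32703 shared identifiers and are set side by side across experiments with no test. The fits were tested on simulated counts with known changes in the TGF-β1 group. The group fit recovered 72% of log2 changes of 2 and 16% of those of 1, and 2.22% of its calls were false. The fit of the difference between classes recovered 38.4% and 3.06%, and 10.9% of its calls were false, above the threshold of 0.05. Both classes were simulated with the depth and spread of whole libraries, which are deeper than the class sums. The shares for this fit come from 1 simulated draw and may not hold for the class sums. An uncalled member may therefore have changed by a log2 of 1 or more. Intervals and floors of 3 UMIs cover counting error only. The members and all lists were chosen with earlier results of these data known. The rule names all 8 members in each comparison, which holds here for whole libraries, while within classes some uncalled members are given only as not called; from the pathway list, up to 3 genes per role past the threshold with the smallest adjusted p are named. For likeness, the 3 genes with the highest r are named. A few genes that these rules select are not reported here.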

Additional observations from a re-analysis of the deposited data

Results flagged for a closer look

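With TGF-β1, 3 members had an effect that differed between collagen-positive and EPCAM-positive cells by edgeR's test of the difference itself, against 7.27% of 18575 genes. The log2 effect in collagen-positive cells minus that in EPCAM-positive cells was -3.65 for INHBA (SE 0.28, adjusted p 4.9e-13), -1.32 for TGFB1 (SE 0.23, adjusted p 7.9e-05) and -1.06 for TGFBR1 (SE 0.22, adjusted p 7.1e-04). Without control replicate 2 the number fell to 1, INHBA, with TGFB1 (-1.06, adjusted p 0.057) and TGFBR1 (-0.87, adjusted p 0.24) losing their calls.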

How the results depend on the processing

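Of 440 alternative values for members called in the fits described, 383 kept direction and call, 55 lost the call and 2 reversed; of 808 for members not called, 681 kept direction and stayed uncalled, 32 gained a call, 2 reversed and 93 changed sign with no call. The number of members called was 0 between the OA control and untreated organoids, and 1 with no filter on low counts or without untreated replicate 2 (range 0 to 1 when a library was left out). With OA it was 6 in whole libraries (3 to 6) and 4 in EPCAM-positive cells (1 to 3), where other mesenchymal markers gave 2 and thinned cells 0. Between ULA days it was 2 in whole libraries (1 to 5), 4 by library totals and 4 by DESeq2; in collagen-positive cells it was 4 (2 to 5). For the TGF-β1 difference between classes it was 3 (1 to 3). With too few cells under the gate used, other gates gave 1 member in OA collagen-positive cells (thinned), 2 in ULA EPCAM-positive cells (other markers) and 1 (thinned), and 2 for the ULA difference (other markers); the remaining gates left too few cells, and the OA difference, thinned differences, and blocks and left-out libraries for these 4 results were not run. The replicate number as a block gave 0 members between ULA days, with no gene called, and 2 in collagen-positive ULA cells; elsewhere it left the number within 1.5 times. Same-numbered libraries deviated together with r -0.22 (TGF-β1), 0.0887 (PA), 0.0408 (OA), -0.44 (OA control against untreated) and -0.17 and -0.27 (ULA), so the numbers were not taken to pair samples. Reversed values, with the range when a library was left out, were TGFBR3 between ULA days in collagen-positive cells (-1.0 without day 34 replicate 1; -1.0 to 0.84), and, between classes in ULA, TGFB1 (0.34 without day 34 replicate 2; -0.24 to 0.34) and TGFBR3 with other markers (0.021) and thinned (0.36). Differences in class shares, in percentage points, that changed sign were those of EPCAM-positive cells with TGF-β1 (-13.0 without control replicate 1, 24.2 without control replicate 2), between OA control and untreated (0.699 with the strict gate; -8.06 to 2.10 without a library) and between ULA days (2.17 with other markers), and those of collagen-positive cells between OA control and untreated (-3.62 without untreated replicate 2, 8.15 without untreated replicate 1) and between ULA days (7.58 thinned; -13.9 to 6.29 without a library). Over all settings, the count of all genes called ranged as follows. With TGF-β1 it was 4295 (1704 to 5554), 4374 in EPCAM-positive cells (1888 to 5460), 2 in collagen-positive cells (0 to 599, the highest without control replicate 2) and 1351 for the difference (777 to 1355). With PA it was 9 (0 to 162, the highest with no filter), 18 (0 to 28), 4 (0 to 20) and 16 (2 to 19) in the same order. With OA it was 8378 (5171 to 10547) and 6300 in EPCAM-positive cells (3071 to 6413). It was 111 between OA control and untreated (0 to 701), 3475 between ULA days (0 to 7168), 3222 in collagen-positive ULA cells (943 to 4602) and 10584 between classes in ULA (6468 to 12617). The cause of these changes was not tested. Of 144 alternative group levels 14 moved by over 1 SD. Depth limits TGFB3 and TGFBR3, with 0 UMIs in collagen-positive cells of the OA libraries, and ENG, with 0 UMIs in EPCAM-positive cells of 3 libraries.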
